A study of Mus musculus with 48 samples.

Results

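The 30 whole-tissue libraries of mouse epididymal white adipose tissue (eWAT), out of 48 libraries in the series, were used to ask whether the difference between Txnip genotype labels depended on diet. Chosen by their labels for tissue, genotype and diet, they were 8 libraries labelled adipose specific TXNIP KO on a ketogenic diet, 8 labelled WT on that diet, 7 labelled KO on a control diet and 7 labelled WT on it. Every gene was measured as a read count from stranded mRNA libraries made from 500 ng of RNA. The quantity tested was the interaction, that is the log2 KO minus WT difference on the ketogenic diet less the same difference on the control diet. A positive interaction means that libraries labelled KO stood higher, relative to their WT libraries, on the ketogenic than on the control diet. The Cre driver, strain, sex, age and time on diet are not given in the sources used here. No label ties a library to 1 animal, so p-values measure the spread between libraries, which may be technical.

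Txnip encodes an arrestin-like protein that binds thioredoxin and restrains glucose uptake, and its transcription follows glucose metabolites through the factors MondoA and ChREBP. A ketogenic diet supplies fat in place of carbohydrate, which lowers the insulin and sugar signals that drive fat synthesis in adipocytes. White adipose tissue holds lipid-filled adipocytes together with macrophages, other immune cells, endothelial cells, fibroblast-like progenitors and a mesothelial covering, and whole-tissue RNA sums over all of them.

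Txnip itself (chromosome 3, 96557957 to 96561883, plus strand, GRCm38) was higher in the libraries labelled KO on both diets, which goes against the label. Its level was 2052 to 2741 (median 2320) CPM in KO ketogenic and 1394 to 2266 (median 1844) CPM in WT ketogenic libraries, and 2127 to 2996 (median 2687) CPM in KO control and 1455 to 1919 (median 1660) CPM in WT control libraries, where CPM is the TMM-scaled count relative to library size. All 7 KO control libraries lay above all 7 WT control libraries, and 5 of 8 KO ketogenic libraries lay above every WT ketogenic library. The KO minus WT difference was 0.35 ± 0.09 log2 units (SE) on the ketogenic diet and 0.69 ± 0.10 on the control diet (edgeR quasi-likelihood test, Benjamini-Hochberg adjusted p = 0.027 and 1.1e-05). The interaction of -0.34 ± 0.13 did not pass the threshold of 0.05 (adjusted p = 0.10), nor did that of -0.29 ± 0.13 with the GC offset described below (adjusted p = 0.28). It passed in DESeq2 (adjusted p = 0.037) and without KO control replicate 6 (adjusted p = 0.039). A count summed over all exons does not test whether some of them were deleted, and every genotype comparison here is between libraries labelled KO and libraries labelled WT.

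Depth, tissue identity and base composition were checked first. Gene counts ran between 21.0 and 39.0 M in KO ketogenic, 17.4 and 25.1 M in WT ketogenic, 35.1 and 51.7 M in KO control and 34.7 and 59.8 M in WT control libraries. The title prefixes put each diet in a library set of its own, so diet and set cannot be told apart, and the interaction compares genotype differences that were each taken within a set. All 18 adipocyte markers were tested, and their summed level was 52790 to 82540 CPM in the ketogenic and 55320 to 76430 CPM in the control libraries. Markers of tissue next to the fat pad were scarce, with 1 of 13 epididymal epithelium genes and 0 of 10 testis germ cell genes above the low-count filter and summed levels of at most 14.2 and 2.17 CPM in any library.

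The libraries differed in how expression ran with GC content, the share of G and C bases in a transcript. The slope of expression on GC, relative to the mean of the 30 libraries and in log2 units per 0.1 of GC, averaged -0.091 ± 0.028 for KO ketogenic and -0.096 ± 0.019 for WT ketogenic libraries (SD, n = 8 each). It averaged -0.028 ± 0.144 for KO control and 0.241 ± 0.086 for WT control libraries (SD, n = 7 each). The ketogenic groups were narrow and overlapped. The control groups were wide and nearly apart, with KO control libraries between -0.279 and 0.165 and WT control libraries between 0.119 and 0.346. The interaction of the slope itself was 0.27 (two-sided test by 100000 permutations of labels within diet, p = 0.001). These permutations assume no label difference on either diet, so the p-value does not test by itself whether the differences on the diets are equal. Gene results are therefore given without and with a GC offset, which removes the smooth trend of each library with GC before the test, and then with the GC slope of the library as a covariate.

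**Figure D1:**
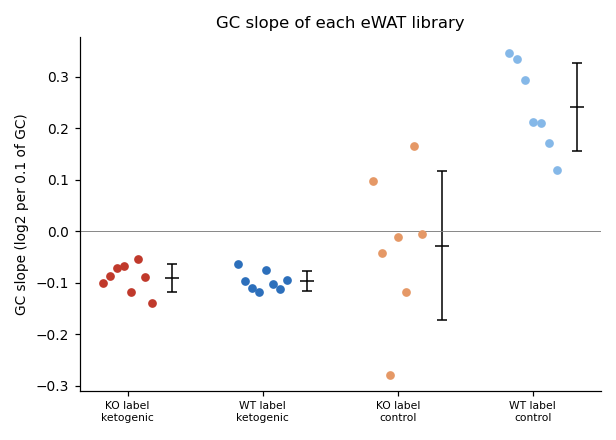
GC slope of each eWAT library (log2 expression per 0.1 of GC, vertical axis) in the 4 groups, where points are libraries and the bar beside them is the mean ± SD. The 16 ketogenic libraries lie together below 0, WT control libraries lie between 0.119 and 0.346, and KO control libraries spread between -0.279 and 0.165.

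Without the offset, 1425 of 17140 genes passed for the interaction (8.31%), 1193 of them positive (6.96%) and 232 negative (1.35%). With the offset 251 passed (1.46%), 155 positive (0.904%) and 96 negative (0.56%), and an offset for GC and transcript length gave 268 (1.56%), 170 positive (0.992%) and 98 negative (0.572%). The fits without and with the GC offset shared 182 genes (1.06%), with 152 positive (0.887%) and 30 negative (0.175%), which is 12.8% of the list without the offset and 72.5% of the list with it. Leaving out 1 library at a time gave between 1070 calls (without WT control replicate 1) and 2048 (without KO control replicate 6) in the fit without the offset. With the offset it gave between 129 calls, without KO control replicate 3, and 496, without KO control replicate 6. Of the 182 shared genes, 85 were called in each of the 60 such runs, 80 positive and 5 negative.

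Adding the GC slope of each library as a covariate, an alternative chosen after seeing the data, left 0 genes past the adjusted threshold in edgeR (0%), with 799 at an unadjusted p under 0.05, against 3959 without the covariate. With the offset and the covariate together 0 genes passed as well (0%), with 809 at an unadjusted p under 0.05 and a smallest adjusted p of 0.574. Of the 182 shared genes, 180 had the same sign of interaction under the covariate alone and 178 under offset and covariate. The median interaction of the 152 positive genes was 0.83 without an offset, 0.55 with it and 0.24 with the covariate alone, and that of the 30 negative genes was -0.53, -0.59 and -0.36. The median SE of the 182 genes was 0.141 with the covariate alone and 0.154 without it, and the median per-gene ratio of these SEs was 1.02. With the offset, the median SE was 0.1397 with the covariate and 0.1263 without it, and the median ratio was 1.145. The slope is measured from the same counts and differs between KO and WT libraries on the control diet, so slope and label cannot be fully told apart there. Every call named below comes from the fits without the covariate, and none of them passes with it.

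**Figure D2:**
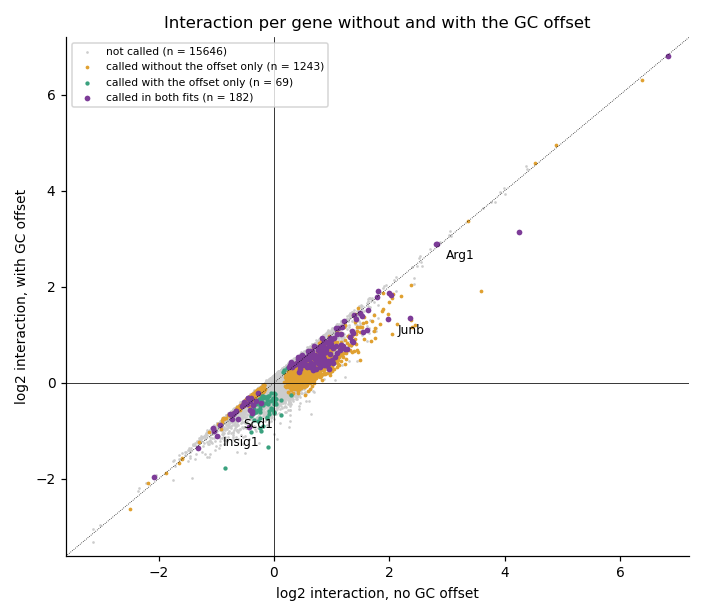
Interaction of each of 17140 genes without the GC offset (horizontal axis, log2) and with it (vertical axis, log2), coloured by the fits that called it, with a dotted line of equal values. The 1243 genes called without the offset only lie mostly right of 0 and below the line, and the 182 genes called in both fits include Arg1 and Junb above 0 and Insig1 and Scd1 below it.

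In the fit without the offset, most of the shared genes passed on the control diet and not on the ketogenic diet. KO against WT gave 574 calls on the ketogenic diet (3.35%, 1.66% higher and 1.69% lower in KO) and 3270 on the control diet (19.1%, 5.21% higher and 13.9% lower). With the offset it gave 756 on the ketogenic diet (4.41%, 2.08% higher and 2.33% lower) and 1437 on the control diet (8.38%, 2.79% higher and 5.6% lower). The counts that follow are all from the fit without the offset. Of the 152 positive genes, 138 passed on the control diet alone, 9 on the ketogenic diet alone, 2 on both and 3 on neither. Of the 30 negative genes, 20 passed on the control diet alone, 6 on the ketogenic diet alone and 4 on neither. The control-diet difference was the larger in size for 140 of the 152 positive and 20 of the 30 negative genes. The differences on the diets had opposite signs for 106 positive and 25 negative genes.

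**Figure D3:**
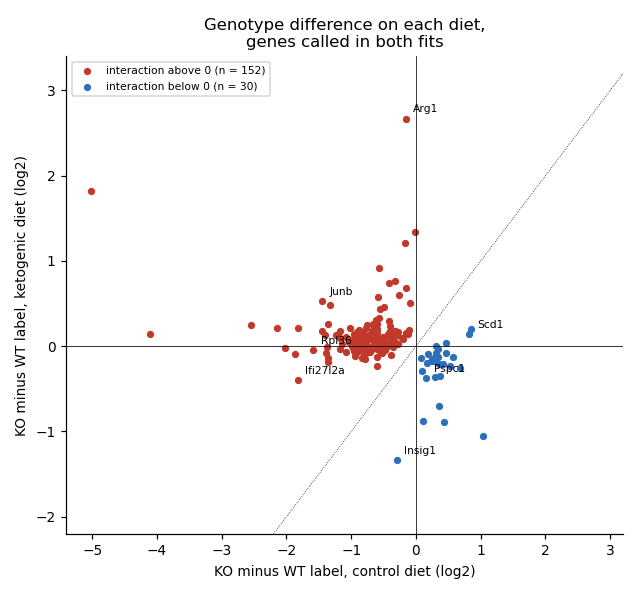
KO minus WT difference on the control diet (horizontal axis, log2) and on the ketogenic diet (vertical axis, log2) for the 182 genes called with and without the GC offset, with a dotted line where both differences are equal. Both differences are from the fit without the offset. Junb, Rpl36 and Ifi27l2a lie at -1.45, -1.59 and -1.82 on the control diet, Arg1 lies at 2.67 and Insig1 at -1.34 on the ketogenic diet.

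Arg1, which splits arginine into ornithine and urea and marks alternatively activated macrophages in mice, had the largest positive interaction among the named genes (chromosome 10, 24915221 to 24927484, minus strand). Its level was 1.40 to 15.1 (median 7.40) CPM in KO ketogenic and 0.286 to 2.64 (median 1.15) CPM in WT ketogenic libraries, and 0.621 to 3.90 (median 2.66) CPM in KO control and 0.576 to 7.33 (median 2.08) CPM in WT control libraries. In 6 of 8 KO ketogenic libraries it exceeded every WT ketogenic library, and the control-diet groups overlapped. The KO minus WT difference was 2.67 ± 0.52 on the ketogenic diet (adjusted p = 0.0059) and -0.16 ± 0.50 on the control diet (adjusted p = 0.87). The interaction was 2.83 ± 0.72 without the offset (adjusted p = 0.014) and 2.89 ± 0.73 with it (adjusted p = 0.038). With the covariate it was 2.65 ± 1.03 (unadjusted p = 0.016, adjusted p = 1). With the offset the call was lost, at adjusted p up to 0.083, when 1 of these was left out: KO ketogenic replicates 3, 4, 5 and 6, WT ketogenic replicates 3, 6, 7 and 8, KO control replicates 2, 3, 4 and 7 or WT control replicates 2, 3 and 4.

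In whole tissue, fewer cells of a type and less RNA per cell cannot be told apart. Arg1 was the 1 called gene of 12 tested for alternative activation, in both fits. Of all genes, 6.96% were called positive without the offset and 0.904% with it. Coro1a, an actin regulator of leukocytes, passed in opposite directions on the diets in the fit without the offset. It had 17.7 to 39.3 (median 25.99) CPM in KO ketogenic and 13.8 to 24.2 (median 16.3) CPM in WT ketogenic libraries, and 20.4 to 35.5 (median 25.1) CPM in KO control and 29.5 to 58.8 (median 36.5) CPM in WT control libraries. It was higher in KO on the ketogenic diet (0.58 ± 0.16, adjusted p = 0.038) and lower in KO on the control diet (-0.58 ± 0.16, adjusted p = 0.011). With the offset the control-diet difference was -0.23 and did not pass (adjusted p = 0.42), while the ketogenic one was 0.57 (adjusted p = 0.024). The interaction was 1.16 ± 0.23 without the offset (adjusted p = 0.0035) and 0.80 ± 0.21 with it (adjusted p = 0.046), and with the offset the call held in 10 of 30 runs that left out 1 library. It was lost without any 1 of KO ketogenic replicates 1, 2, 3, 4 and 6, WT ketogenic replicates 2, 3, 4, 5, 6 and 7, KO control replicates 2, 3, 4, 5 and 7 or WT control replicates 1, 2, 3 and 4.

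Kcnn4, a calcium-activated potassium channel, had 2.62 to 8.32 (median 3.28) CPM in KO ketogenic and 1.47 to 2.65 (median 2.30) CPM in WT ketogenic libraries, and 1.89 to 4.59 (median 2.97) CPM in KO control and 2.95 to 9.47 (median 3.43) CPM in WT control libraries. In 7 of 8 KO ketogenic libraries it exceeded every WT ketogenic library, and its interaction was 1.49 ± 0.36 (1.45 ± 0.36 with the offset, held in 17 of 30 runs). Il3ra, the alpha chain of the interleukin-3 receptor, had an interaction of 1.62 ± 0.36 (1.10 ± 0.28 with the offset, held in 12 of 30 runs), and it was below every WT control library in 6 of 7 KO control libraries. Of 10 inflammatory cytokine genes tested 1 passed in each fit, against 6.96% of all genes called positive without the offset and 0.904% with it. This was Tgfb1, at 0.58 ± 0.13 (0.49 ± 0.12 with the offset, held in 13 of 30 runs). Each of these 3 genes had an adjusted p of at most 0.076 in any run with the offset.

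Several immune lists had mostly positive members while few passed. Without the offset 5 of 14 complement genes and 3 of 15 pan-macrophage markers were called, all positive, where 6.96% of all genes were called positive. With the offset 0 in either list were called, against 0.904% of all genes. The 3 pan-macrophage calls were C1qa, C1qb and C1qc, which are also among the complement calls, as is the adipocyte marker Cfd. C1qa, C1qb and C1qc encode the chains of C1q, which starts the classical complement pathway. Their interactions were 0.88, 0.68 and 0.86 without the offset and 0.43, 0.34 and 0.51 with it. C1qb had 58.3 to 98.2 (median 76.2) CPM in KO ketogenic and 47.8 to 74.6 (median 55.6) CPM in WT ketogenic libraries, and 75.2 to 115 (median 99.8) CPM in KO control and 105 to 149 (median 116) CPM in WT control libraries. Without the offset it passed in opposite directions, at 0.36 ± 0.10 on the ketogenic diet and -0.32 ± 0.11 on the control diet. With the offset these were 0.35 (adjusted p = 0.047) and 0.0073 (adjusted p = 0.99).

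Of 10 MHC class II genes 2 were called without the offset, H2-DMb2 (0.99 ± 0.27) and H2-DMb1 (0.70 ± 0.22), neighbours of similar sequence whose reads may not be fully separable, and 0 with it. The share of all genes called positive was 6.96% without the offset and 0.904% with it. Of 12 B cell markers 1 was called without the offset, Cd37 (0.77 ± 0.20), and 0 with it. All 10 MHC class II genes and all 12 B cell markers, which are not independent of each other, had a positive interaction in both fits. Their medians were 0.62 and 0.64, or 0.40 and 0.47 with the offset. The median over all genes tested was -0.0014, or -0.0048 with the offset. The 12 B cell markers summed to a median of 409 CPM in KO ketogenic, 544 CPM in WT ketogenic, 502 CPM in KO control and 722 CPM in WT control libraries. None of 19 chemokine genes and receptors, 15 lipid-associated macrophage genes and 14 T and NK cell markers passed in either fit.

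Summed marker levels are set beside these immune genes. The summed level of the 15 pan-macrophage markers was 857 to 1866 (median 1226) CPM in KO ketogenic, 756 to 1131 (median 900) CPM in WT ketogenic, 1276 to 2014 (median 1660) CPM in KO control and 1302 to 1735 (median 1475) CPM in WT control libraries. The 12 mesothelial markers, of the covering of the fat pad, summed to 310 to 583 (median 459) CPM in KO ketogenic, 144 to 585 (median 317) CPM in WT ketogenic, 176 to 880 (median 479) CPM in KO control and 182 to 813 (median 476) CPM in WT control libraries. All 12 mesothelial markers had a positive interaction, with a median of 0.58 (0.54 with the offset), and 0 passed in either fit. The part of cell content in the immune results was not tested.

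Insig1 had the most negative interaction among the named genes (chromosome 5, 28071363 to 28078662, plus strand). The protein holds the sterol sensor Scap in the endoplasmic reticulum and so keeps the SREBP factors, which drive sterol and fatty acid synthesis, from being processed, and Insig1 is itself an SREBP target. Its promoter window is shown because this gene has the most negative value and differed on the ketogenic diet. The window was taken from RefSeq (GRCm38.p6, chr5:28071162-28071461, plus strand) and runs from 250 bases before to 50 bases after the start site. Capitals mark the match to the E-box core CACGTG, a palindrome that many basic helix-loop-helix factors can bind.
Insig1: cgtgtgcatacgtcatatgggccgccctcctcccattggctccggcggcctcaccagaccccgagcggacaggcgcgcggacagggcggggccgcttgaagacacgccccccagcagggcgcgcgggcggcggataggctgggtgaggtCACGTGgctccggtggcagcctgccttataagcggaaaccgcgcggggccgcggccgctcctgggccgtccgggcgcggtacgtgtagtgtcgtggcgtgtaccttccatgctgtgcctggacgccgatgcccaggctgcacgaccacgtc
The match lies at -101 to -96 from the start site, and 7.15% of 32851 RefSeq windows of this length hold that core. The sterol regulatory element TCACNCCAC, searched on both strands, had no match in this window and is in 1.24% of the windows.

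The level of Insig1 was 95.7 to 192 (median 121) CPM in KO ketogenic and 200.5 to 491 (median 294) CPM in WT ketogenic libraries, and 63.3 to 98.6 (median 76.8) CPM in KO control and 69.1 to 133 (median 90.6) CPM in WT control libraries. All 8 KO ketogenic libraries lay below all 8 WT ketogenic libraries, and the control-diet groups overlapped. The difference was -1.34 ± 0.17 on the ketogenic diet (adjusted p = 1.8e-05) and -0.30 ± 0.18 on the control diet (adjusted p = 0.25). The interaction was -1.04 ± 0.24 (adjusted p = 0.0072), or -0.995 ± 0.24 with the offset (adjusted p = 0.035), where the call was lost, at adjusted p up to 0.063, without any 1 of KO ketogenic replicates 4 and 6, WT ketogenic replicate 3, KO control replicates 2 and 3 or WT control replicates 1, 3 and 4. With the covariate it was -1.22 ± 0.32, with an unadjusted p of 0.00071 and an adjusted p of 0.92.

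**Figure D4:**
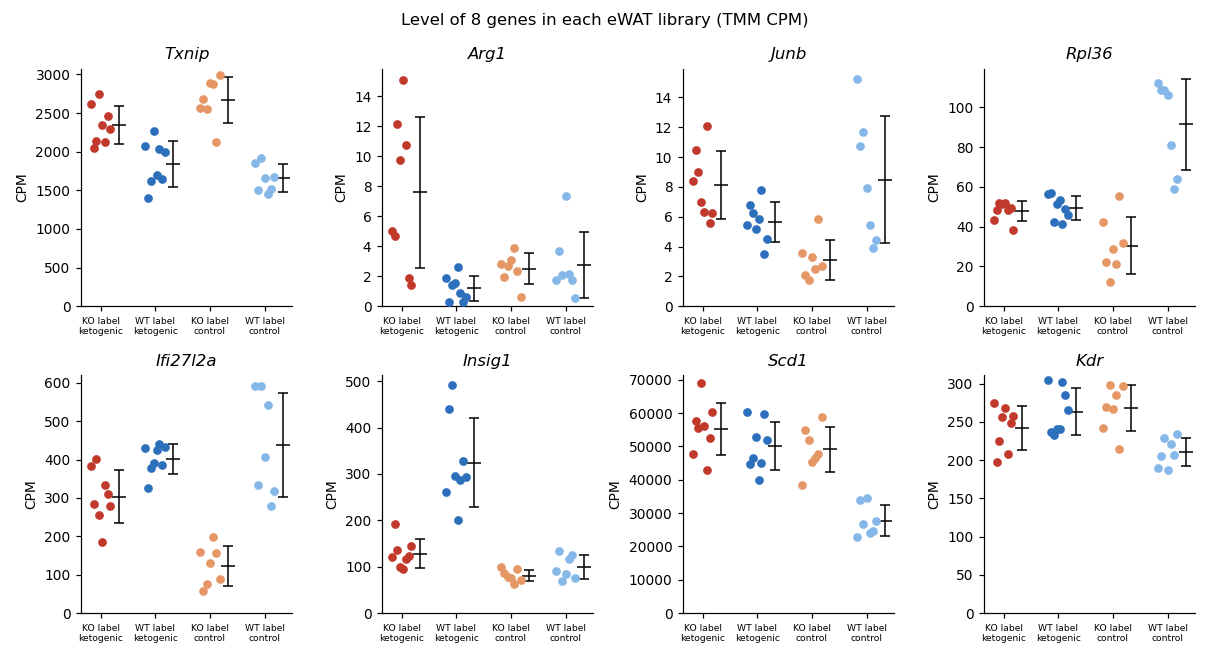
Level of 8 genes in each eWAT library (CPM on linear axes that start at 0), by group, with the mean ± SD beside the points. Txnip is higher in KO than in WT libraries on both diets, Arg1 is high and Insig1 low in KO ketogenic against WT ketogenic libraries, and Junb, Rpl36 and Ifi27l2a have their lowest medians in KO control libraries.

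Other genes of sterol and lipid synthesis went both ways. Scd1, which puts a double bond into stearoyl-CoA, had 42823 to 68973 (median 55943) CPM in KO ketogenic and 40048 to 60268 (median 49225) CPM in WT ketogenic libraries, and 38422 to 58898 (median 47863) CPM in KO control and 22806 to 34391 (median 26618) CPM in WT control libraries. All 7 KO control libraries were above all 7 WT control libraries (0.83 ± 0.12, adjusted p = 1.3e-05), while the ketogenic groups overlapped (0.14 ± 0.11, adjusted p = 0.54). Its interaction was -0.69 ± 0.16 (adjusted p = 0.0068), or -0.62 ± 0.16 with the offset (adjusted p = 0.036, held in 16 of 30 runs that left out 1 library). G6pdx, which makes cytosolic NADPH, had an interaction of -0.37 ± 0.11 (-0.46 ± 0.11 with the offset) and was higher in KO on the control diet, at 0.34 ± 0.08. Its call was lost without WT ketogenic replicate 2 or KO control replicates 2 and 3 in the fit without the offset, and without KO control replicate 3 in the fit with it.

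Over all genes 6.96% were called positive and 1.35% negative without the offset, and 0.904% and 0.56% with it. Of 18 lipogenic genes 1 was positive and 3 were negative without the offset, and 2, Scd1 and G6pdx, were negative with it. Acaca, which makes malonyl-CoA, was the other negative call, at -0.59 ± 0.19 (-0.57 with the offset, adjusted p = 0.13). Srebf1, which encodes the lipogenic factor SREBP1, was the positive call, at 0.82 ± 0.19 (0.43 with the offset, adjusted p = 0.14). Of 19 cholesterol synthesis genes Msmo1 (-0.51 ± 0.13) and Sc5d (-0.51 ± 0.16), which modify sterol intermediates, were negative and had adjusted p = 0.077 and 0.22 with the offset. Scap (0.61 ± 0.11) and Nr1h2, a nuclear receptor for oxysterols (0.94 ± 0.20), were positive and had adjusted p = 0.15 and 0.050 with it. The median interaction was -0.12 for the lipogenic list (-0.33 with the offset) and -0.05 for the cholesterol synthesis list (-0.02 with it).

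Immediate early genes, which respond fast to growth factors, stress or tissue handling, had 3 of 14 members called without the offset and 2 with it, all positive, against 6.96% and 0.904% of all genes. Junb, a subunit of the AP-1 factor (chromosome 8, 84974484 to 84978718, minus strand), had 5.59 to 12.1 (median 7.72) CPM in KO ketogenic and 3.51 to 7.77 (median 5.64) CPM in WT ketogenic libraries, and 1.79 to 5.82 (median 2.73) CPM in KO control and 3.90 to 15.3 (median 7.94) CPM in WT control libraries. In 6 of 7 KO control libraries it lay below every WT control library. Its interaction was 1.98 ± 0.37 (adjusted p = 0.0028), 1.34 ± 0.28 with the offset (adjusted p = 0.015) and 0.58 ± 0.34 with the covariate (adjusted p = 1). Ier3, an early response gene that protects cells from death signals, had 4.02 to 6.65 (median 5.68) CPM in KO ketogenic and 2.92 to 3.80 (median 3.12) CPM in WT ketogenic libraries, and 3.78 to 7.37 (median 4.40) CPM in KO control and 4.56 to 10.4 (median 6.51) CPM in WT control libraries. All 8 KO ketogenic libraries lay above all 8 WT ketogenic libraries, and 4 of 7 KO control libraries lay below every WT control library.

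The difference of Ier3 was 0.75 ± 0.16 on the ketogenic diet (adjusted p = 0.0098) and -0.42 ± 0.16 on the control diet (adjusted p = 0.060). Its interaction of 1.17 ± 0.22 (1.01 ± 0.21 with the offset) held in all 30 runs that left out 1 library in each fit, as did that of Junb, and was 0.86 ± 0.28 with the covariate (unadjusted p = 0.0048, adjusted p = 0.93). Ier2 was called without the offset only, at 1.14 ± 0.24 (0.58 with it, adjusted p = 0.088).

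Ribosomal protein genes were examined after their values were seen, so the set has no test. Of 78 tested genes named for cytosolic ribosomal proteins, 24 were called positive and 0 negative without the offset, where 6.96% and 1.35% of all genes were. With the offset 13 were called positive and 1 negative, and 13 (16.7%) were positive in both fits, against 0.887% of all genes. The median interaction of the 78 was 0.17, or 0.08 with the offset. The interactions of the 13 genes called in both fits ran between 0.32 (Rps12) and 1.54 (Rpl36) without the offset, and these genes include Rpl8, Rplp1, Rplp2, Rpl27a, Rps21 and Rps26. Ribosomal protein genes have many pseudogene copies. Reads that mapped to several places were left out of the gene counts, so the values are uncertain. Of 77 mitochondrial ribosomal protein genes 3 were called in both fits (3.9%), and of 12 Snrp genes, which encode parts of the spliceosome, the 2 called were Snrpa and Snrpb.

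Transcripts of ribosomal protein genes typically begin in a pyrimidine tract, through which growth signals control their translation. Start sites of 4 called genes are shown as examples that hold a tract at or near the start, and were chosen for it. A tract counted if it reached within 5 bases of the start, and that of Rps26 begins after the start. Another RefSeq start of Rps21 (chr2:180257434-180257464, plus strand) held no tract. Each runs 15 bases to either side of the RefSeq start (GRCm38.p6), with the tract of at least 6 C or T bases in capitals.
Rpl27a: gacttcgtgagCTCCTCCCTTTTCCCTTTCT
Rplp2: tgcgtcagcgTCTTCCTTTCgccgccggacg
Rps26: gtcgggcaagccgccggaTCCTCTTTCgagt
Rps21: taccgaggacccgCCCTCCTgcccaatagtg
They lie at chr7:109519180-109519210 (plus strand), chr7:141447636-141447666 (plus strand), chr10:128626491-128626521 (minus strand) and chr2:180257364-180257394 (plus strand). The RefSeq table gave 11 windows for some of the 13 called genes, and 5 of them held a tract (45.5%), as did 26 of 56 windows of the other cytosolic ribosomal protein genes tested (46.4%) and 6905 of 32851 windows in all (21.0%).

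Rpl36, a protein of the large ribosomal subunit (chromosome 17, 56613416 to 56614243, plus strand), shows the values behind these calls. It had 38.1 to 52.1 (median 48.9) CPM in KO ketogenic and 41.2 to 57.01 (median 50.1) CPM in WT ketogenic libraries, and 12.1 to 55.2 (median 28.7) CPM in KO control and 59.01 to 112 (median 106) CPM in WT control libraries. The ketogenic groups overlapped, and all 7 KO control libraries lay below all 7 WT control libraries. Its interaction was 1.54 ± 0.28 (adjusted p = 0.0027), 1.05 ± 0.19 with the offset (adjusted p = 0.0089) and 0.38 ± 0.15 with the covariate (adjusted p = 1). KO control replicate 3, with the lowest GC slope of the 30 libraries (-0.279), had 12.1 CPM of Rpl36. KO control replicate 6, with the highest slope of its group (0.165), had 55.2 CPM, and WT control replicate 1, with the highest slope of all (0.346), had 112 CPM. These 3 libraries were picked for their slopes. The ketogenic libraries, with slopes between -0.1385 and -0.054, had 38.1 to 57.01 CPM of Rpl36. KO control libraries had a higher median slope than KO and WT ketogenic libraries (-0.011 against -0.088 and -0.099) and a lower median level (28.7 CPM). The part of GC content in the Rpl36 result was not tested beyond these fits.

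Rps26, a protein of the small subunit, averaged 130 CPM in KO ketogenic, 118 CPM in WT ketogenic, 64.9 CPM in KO control and 126 CPM in WT control libraries, with an interaction of 1.11 (1.14 with the offset). Rpl27a, of the large subunit, averaged 75.6 CPM in KO ketogenic, 67.6 CPM in WT ketogenic, 35.3 CPM in KO control and 66.6 CPM in WT control libraries, with an interaction of 1.08 (1.14 with the offset). Both stood apart by a low mean in the KO control libraries.

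Among the other large positive interactions, Ifi27l2a, an interferon-induced gene (chromosome 12, 103442167 to 103443680, minus strand), had 184 to 400.5 (median 298) CPM in KO ketogenic and 325 to 439.6 (median 408) CPM in WT ketogenic libraries, and 57.2 to 199 (median 130.1) CPM in KO control and 278 to 592 (median 407) CPM in WT control libraries. It was below every WT library of its diet in all 7 KO control libraries and in 5 of 8 KO ketogenic libraries. Its interaction was 1.42 ± 0.30 (adjusted p = 0.0043), 1.33 ± 0.29 with the offset (adjusted p = 0.019) and 0.85 ± 0.38 with the covariate (adjusted p = 1). It was the 1 called gene of 16 interferon-induced genes, against 6.96% of all genes called positive without the offset and 0.904% with it. Dpm3, a subunit of the enzyme that makes dolichol-phosphate mannose for glycosylation, had 3.98 to 6.19 (median 5.15) CPM in KO ketogenic and 3.55 to 5.56 (median 4.65) CPM in WT ketogenic libraries, and 1.16 to 4.23 (median 2.16) CPM in KO control and 3.65 to 8.98 (median 7.50) CPM in WT control libraries. In 6 of 7 KO control libraries it lay below every WT control library, and its interaction was 1.53 ± 0.27 (1.39 ± 0.25 with the offset).

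Ckb, the brain-type creatine kinase, had 11.4 to 18.3 (median 12.9) CPM in KO ketogenic and 10.1 to 15.5 (median 12.96) CPM in WT ketogenic libraries, and 9.04 to 18 (median 13.5) CPM in KO control and 22.4 to 45.2 (median 28.8) CPM in WT control libraries. All 7 KO control libraries lay below all WT control libraries, and its interaction was 1.28 ± 0.22 (0.70 ± 0.15 with the offset). The calls of Ifi27l2a, Dpm3 and Ckb held in all 30 runs that left out 1 library, in each fit. Llgl2, a cell polarity gene, reached 1.36 ± 0.28 (0.87 ± 0.22 with the offset, held in 14 of 30 runs). Chpf, which extends chondroitin chains, reached 1.32 ± 0.30 (0.96 ± 0.24 with the offset, held in 21 of 30 runs), and -0.02 with offset and covariate together. Mt1, a metallothionein that binds zinc, reached 0.995 ± 0.23 (0.90 ± 0.23 with the offset, held in 13 of 30 runs).

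The 5 negative interactions called in every run were Dnhd1, Clic5, Pspc1, Smagp and Arhgap31. Pspc1, a protein of nuclear paraspeckles (chromosome 14, 56720710 to 56778316, minus strand), had 11.8 to 15.3 (median 13.2) CPM in KO ketogenic and 15.9 to 18.9 (median 17.2) CPM in WT ketogenic libraries, and 15.03 to 18.8 (median 17.1) CPM in KO control and 13.1 to 16.6 (median 15) CPM in WT control libraries. All 8 KO ketogenic libraries lay below all 8 WT ketogenic libraries. Its interaction was -0.53 ± 0.09 (adjusted p = 0.0022), -0.41 ± 0.08 with the offset (adjusted p = 0.012) and -0.37 ± 0.11 with the covariate (unadjusted p = 0.0028, adjusted p = 0.92). Clic5, of the chloride intracellular channel family, had 48.2 to 60.7 (median 57.1) CPM in KO ketogenic and 57.9 to 71.3 (median 63.99) CPM in WT ketogenic libraries, and 47.3 to 73.3 (median 62.6) CPM in KO control and 43.9 to 58.8 (median 47.4) CPM in WT control libraries. Its interaction was -0.55 ± 0.10 (-0.47 ± 0.09 with the offset), with a difference of -0.20 ± 0.07 on the ketogenic diet (adjusted p = 0.11) and 0.35 ± 0.08 on the control diet (adjusted p = 0.0012).

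Endothelial markers had 3 of 12 members called negative without the offset and 1 with it, against 1.35% and 0.56% of all genes. Kdr, the main VEGF receptor of endothelium (chromosome 5, 75932827 to 75978458, minus strand), had 197 to 275 (median 252) CPM in KO ketogenic and 233 to 305 (median 253) CPM in WT ketogenic libraries, and 215 to 299 (median 269.6) CPM in KO control and 187 to 234 (median 207) CPM in WT control libraries. In 6 of 7 KO control libraries it exceeded every WT control library. Its interaction was -0.47 ± 0.11 (adjusted p = 0.0088), or -0.45 ± 0.11 with the offset (adjusted p = 0.032, held in 19 of 30 runs). Flt1, another VEGF receptor (-0.32 ± 0.10), and Emcn, an endothelial surface protein (-0.31 ± 0.08), were called without the offset only. The median of the list was -0.16, or -0.27 with the offset, where 0 of 12 members were positive.

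Further negative genes were called in both fits. Dnhd1, a dynein relative, was at -0.72 ± 0.17, Calr3, a calreticulin relative, at -0.70 ± 0.17, Chn1, which switches off Rac, at -0.66 ± 0.15, Mfsd13b, of a transporter family, at -0.65 ± 0.15, and Abcc9, a regulatory subunit of ATP-sensitive potassium channels, at -0.54 ± 0.12. With the offset their interactions were -0.76, -0.66, -0.59, -0.59 and -0.47. The calls with the offset held in 30, 9, 12, 13 and 24 of 30 runs that left out 1 library.

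Of 18 adipocyte markers 3 were called positive and 1 negative without the offset, against 6.96% and 1.35% of all genes. Of 20 lipolysis and lipid droplet genes 3 were positive and 0 negative. Of 15 fatty acid uptake genes 1 was positive and 2 were negative. With the offset these 3 lists had 0 positive calls, against 0.904% of all genes. Their 1 negative call with it was an adipocyte marker, against 0.56% of all genes. Adrb3, the adrenergic receptor that starts lipolysis (0.59 ± 0.16), Lipe, the hormone-sensitive lipase (0.49 ± 0.13), Cfd, the secreted factor adipsin (0.96 ± 0.28), and Acads, a short-chain acyl-CoA dehydrogenase (0.74 ± 0.17), were positive without the offset. With it they had adjusted p = 0.21, 0.25, 0.34 and 0.27. Cd36, a fatty acid transporter (-0.30 ± 0.08), Acsl3, which activates fatty acids (-0.52 ± 0.12), and Aqp7, the glycerol channel (-0.36 ± 0.10), were negative without the offset and had adjusted p = 0.36, 0.062 and 0.077 with it. Cebpa, an adipogenic transcription factor, and Dgat1, which completes triglyceride synthesis, were called with the offset only, at -0.63 and -0.60 (adjusted p = 0.022 and 0.036), and lay at 0.01 and -0.30 without it. Of 20 oxidative phosphorylation genes 1 was called without the offset and 0 with it, against 8.31% and 1.46% of all genes. None of 20 glucose uptake and glycolysis genes, 15 genes of the Txnip, arrestin and glucose-sensing list, 10 ketone body genes and 18 circadian clock genes passed in either fit. Akt1, a kinase of insulin signalling, and Bag3, a heat shock co-chaperone, were positive at 0.43 and 0.26 without the offset and lay at -0.04 and -0.01 with it.

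**Figure D5:**
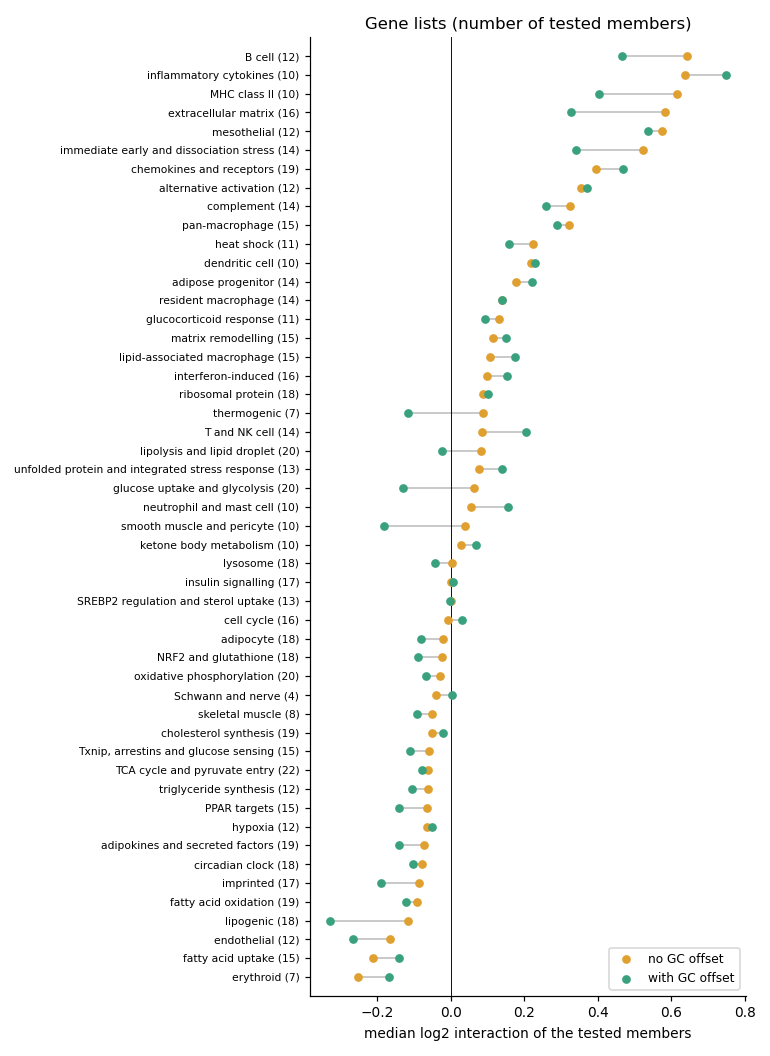
Median interaction (log2, horizontal axis) of the tested members of each gene list without the GC offset and with it, with the number of tested members in brackets. MHC class II, B cell and mesothelial genes lie at 0.58 to 0.64 without the offset and 0.40 to 0.54 with it. Inflammatory cytokine genes lie at 0.64 and 0.75, and extracellular matrix genes at 0.58 and 0.33. Immediate early genes lie at 0.52 and 0.34, and chemokine genes and receptors at 0.40 and 0.47. Endothelial and lipogenic genes are among the lists below 0 in both fits.

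The calls without the offset were spread by GC content. Over 17121 genes, not independent of each other, the interaction had a Spearman rho with GC of 0.504, and of 0.0131 with the offset. The KO minus WT difference had a rho of 0.0336 on the ketogenic diet and -0.567 on the control diet. In the quintile highest in GC, 910 were positive and 4 negative without the offset, and 67 and 55 with it. In the quintile lowest in GC, 5 were positive and 116 negative without the offset, and 5 and 6 with it. The genes called in both fits had a median GC of 0.537 (positive) and 0.483 (negative), against 0.493 over all genes tested.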

How the data were processed

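The deposited files hold unnormalized counts of reads per gene, 1 file a library. The submitters' processing notes name STAR 2.7.8a, Trim Galore 0.6.0 and the mm10 build, with no annotation release. The count column of the strand that holds most reads was used, and summary rows for unassigned reads (19.4 to 22.3% of the total) were left out. Of 55471 genes, 55230 had a symbol and 55144 a GC content, taken from the longest GENCODE vM21 transcript.

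All 4 groups were fitted together in edgeR 4.0.16 (R 4.3.3) with filterByExpr, TMM scaling and a robust quasi-likelihood fit, and p-values were adjusted by Benjamini-Hochberg over 17140 genes. The GC offset is a lowess curve (span 0.3) of each library's log2 CPM deviation on GC; genes without GC got none. SE was derived from the fold change and its F value. Alternatives were limma 3.58.1 (voom with quality weights), DESeq2 1.42.0, other filters, the unstranded column, an offset for GC and length, a replicate block, and each library left out. The GC slope covariate and the runs leaving out 1 library with the offset were added after seeing the data. The fits without and with the GC offset were run on simulated data, with no GC trend or the same trend in all KO control libraries. The slopes of the measured KO control libraries varied, so the simulation does not cover that spread. The covariate fit was not simulated. No pair of libraries of a group agreed within sampling noise (smallest chi-square per degree of freedom 8.05).

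Genes were named by rule: Txnip, the 10 largest interactions in each direction called in both fits with a mean of at least 2 CPM, up to 3 called members of each of 52 gene lists, and up to 5 genes called in opposite directions on the diets. Acaca, Cebpa, Dgat1, Smagp, Arhgap31, Snrpa, Snrpb and the ribosomal protein genes beyond that rule were picked after their values were seen. Members and lists were chosen with earlier results of these data known. RefSeq promoters matched 56 of 69 named genes.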

Additional observations from a re-analysis of the deposited data

Results flagged for a closer look

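The interaction passed for 1425 of 17140 genes without the GC offset (8.31%) and for 251 with it (1.46%). With the GC slope of the library as a covariate it passed for 0 genes, without and with the offset. Of the genes that passed on both diets in opposite directions without the offset, C1qb had an interaction of 0.683, Coro1a of 1.16 and Cript, a postsynaptic scaffold binder, of -0.287. With the offset none of these 3 passed on the control diet, where the differences were 0.0073 for C1qb, -0.23 for Coro1a and 0.027 for Cript (edgeR adjusted p = 0.99, 0.42 and 0.80). Their interactions with the offset were 0.34, 0.80 and -0.18 (adjusted p = 0.28, 0.046 and 0.12).

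Of 280 combinations of a group with a named gene or the GC slope, 13 held 1 library far from the others by Dixon's criterion, where chance flags about 1 in 20. All 13 were of genes. In the ketogenic groups, KO replicate 6 had 8.32 CPM of Kcnn4 (others 2.62 to 5.09), 18.3 CPM of Ckb (others 11.4 to 14.5) and 20.5 CPM of H2-DMb1 (others 7.70 to 13.7). KO replicate 2 had 33.1 CPM of Cbr2 (others 23.8 to 28.2). WT replicate 1 had 2.82 CPM of H2-DMb2 (others 1.53 to 2.08), and WT replicate 4 had 222 CPM of Rpl8 (others 192 to 204). In the control groups, KO replicate 6 had 5.52 CPM of Il3ra (others 1.21 to 2.88), 57.2 CPM of Mt1 (others 30.4 to 40.1) and 50.9 CPM of Loxl1 (others 23.3 to 33.8). KO replicate 2 had 3.14 CPM of Nap1l5 (others 0.928 to 1.88). WT replicate 4 had 9.47 CPM of Kcnn4 (others 2.95 to 5.00), WT replicate 2 had 17.3 CPM of Acsl3 (others 11.9 to 13.6) and WT replicate 1 had 151 CPM of Rpl13 (others 46.0 to 75.5).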

How the results depend on the processing

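The interaction gave 1425 calls, and counts within 1.5 times of that with DESeq2, DESeq2 size factors, limma-voom, no low-count filter, the unstranded column and a replicate block (1119 to 1984 calls). Over these alternatives positive calls ran from 1021 (DESeq2 size factors) to 1463 (limma-voom), against 1193. Negative calls varied more, from 71 (no low-count filter) to 687 (DESeq2), against 232. Positive calls outnumbered negative ones in each. The interaction gave 251 with the GC offset, 268 with the GC and length offset, 329 with the replicate block and GC offset, and 0 with the GC slope covariate (799 at an unadjusted p under 0.05 by edgeR; limma and DESeq2 were not run with it). With the GC offset the 251 calls became 0 with the covariate (809 at an unadjusted p under 0.05). The KO minus WT count on the control diet was 3270, and 1437 with the GC offset. Leaving out 1 library gave 1070 to 2048 calls without the offset and 129 to 496 with it. With the offset the count moved by over 1.5 times without KO ketogenic replicates 2 (153) and 3 (159), KO control replicates 1 (393), 2 (150), 3 (129), 5 (144) and 6 (496), and WT control replicates 1 (154), 2 (152), 3 (136) and 4 (149).

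Of the named genes, 39 without the GC offset were no longer called with it, and 2 reversed: Akt1 had -0.037 with the GC offset, -0.032 with the GC and length offset and -0.038 with the replicate block and GC offset, and Bag3 had -0.0063, -0.00016 and -0.00172 under the same alternatives. With the GC slope covariate Lrp1 had -0.00011, and Chpf with the GC offset had -0.017. The cause was not tested. The replicate block alone gave 1657 calls, 1328 positive and 329 negative. Of the 182 genes called with and without the GC offset, 179 were called with the replicate block and 138 with the replicate block and GC offset. The labels do not say that a number pairs libraries, and pairing was accepted only if every same-numbered KO and WT pair had deviations that correlated above 0.1. This held for 7 of 8 pairs on the ketogenic diet and 4 of 7 on the control diet. The same number correlated best for 6 KO and 5 WT libraries of 8 each on the ketogenic diet, a hint of pairing there from the data, and for 1 KO and 1 WT library of 7 each on the control diet. The slope interaction was 0.27, and 0.28 over genes of at least 2 CPM. Median depth was 28.4 M for KO ketogenic, 23.4 M for WT ketogenic, 42.6 M for KO control and 40.6 M for WT control libraries, which limits genes of low count most on the ketogenic diet.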
